A study of Xenopus laevis with 4 samples.

Results

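Transcripts of 4 metabolic enzyme genes, akr1d1.L, agxt.L, fah.L and hpgds.L, were followed in dorsal and ventral pancreatic buds of *Xenopus laevis* tadpoles. They are 4 of the 7531 genes that the array's annotation names with a probe set of their own, and each was read by 1 probe set. The genes were chosen by their dorsal-ventral difference in these same arrays, so their own differences are given as a description, with no test. The suffix .L marks the copy on the long subgenome of this allotetraploid frog. The only copy on the short subgenome with its own probe set was hpgds.S, which the choice did not use.

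The dorsal group was 2 pools of dorsal buds and the ventral group 2 pools of ventral buds, in both cases cut out before the buds fuse. Every pool was made of 1000 to 3000 buds, which yielded 1 to 5 ng of RNA, and was hybridised to its own 1-colour Affymetrix array. All tadpoles were raised in the same dilute salt medium and anaesthetised with MS-222, and the labels give no strain, stage or genotype. A pool averages over many animals, and the labels do not say whether replicate pools came from separate clutches, so p-values measure a spread between pools that may be no more than technical.

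In mammals akr1d1, agxt and fah serve pathways that are most active in liver, and the ventral pancreatic bud grows out beside the liver and bile duct. The product of akr1d1 is the reductase that saturates the first ring of bile acid precursors and of steroid hormones. The aminotransferase made from agxt turns glyoxylate into glycine and so keeps it from becoming oxalate, and fah encodes the hydrolase of the last step of tyrosine breakdown. The product of hpgds makes prostaglandin D from its unstable precursor with glutathione as cofactor. It belongs to the sigma class of glutathione transferases and is known in mammals from mast cells and megakaryocytes.

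Values are the intensities that the authors deposited, on a linear scale with a mean of 100.0 on every array once control probe sets are left out. Medians lay between 21.8 and 24.2. Across the 9294 probe sets tested, the dorsal arrays were less alike (Pearson r = 0.949 across probe sets, which are not independent replicates) than the ventral arrays (r = 0.981). The 3' to 5' ratio of the gapdh control probe sets, a sign of RNA integrity, was 9.69 and 5.53 on the dorsal arrays and 7.52 and 7.55 on the ventral arrays. For the alpha-actin control probe sets it was 4.99 and 1.38 on the dorsal arrays and 1.64 and 3.17 on the ventral arrays. The 17 control probe sets for artificial tag sequences, which should match no frog transcript, reached at most 21.5 on any array. That value is from ventral replicate 1, and on the dorsal arrays they reached 11.7 and 12.6. Detection calls are not given in the sources used here, and 2 arrays per group limit the precision of every comparison.

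The bile acid reductase gene akr1d1.L was near the floor of the array in dorsal buds and well above it in ventral buds. Its intensity was 6.37 and 5.97 in dorsal replicates 1 and 2, and 79.3 and 59.4 in ventral replicates 1 and 2. Both dorsal values lay under the highest tag control, at 21.5, and both ventral values above it. The group means were 6.17 ± 0.281 and 69.4 ± 14.1 (SD, n = 2 each). As the dorsal values cannot be told from background, no exact ventral to dorsal ratio is given. The ventral mean was 3.22 times the highest tag control of any array, which is from ventral replicate 1. On the scale of log2(intensity + 6), which understates the change of dim genes, the ventral minus dorsal difference was 2.62 ± 0.23 (moderated SE from limma). As the dorsal level is about as large as the added 6, that constant sets the size of the difference, which was 1.62 with 4 times the constant and 3.28 with a constant of 1. In a pool of whole buds, fewer cells that express a gene and less RNA per cell cannot be told apart.

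The glyoxylate aminotransferase gene agxt.L had the smallest standard error of the 4. Intensities were 177 and 186 in dorsal pools against 439 and 431 in ventral pools. All 4 values were clear of the tag controls, and the groups did not overlap. The means were 182 ± 6.19 and 435 ± 5.99 (SD, n = 2 each), a ratio of 2.39, and the log2 difference was 1.23 ± 0.15.

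The tyrosine pathway gene fah.L stood at 22.8 and 22.7 in dorsal pools and at 69.7 and 53.0 in ventral pools. The dorsal values were just above the highest tag control of any array and further above those of the dorsal arrays, at 11.7 and 12.6. The ventral arrays differed from each other by more than the dorsal arrays did, and both lay above them. The means of 22.8 ± 0.137 and 61.3 ± 11.8 (SD, n = 2 each) gave a ratio of 2.70 and a log2 difference of 1.22 ± 0.22.

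For the prostaglandin D synthase gene hpgds.L the dorsal intensities were 34.9 and 39.3 and the ventral intensities 129 and 112. Again the lower ventral array lay far above the higher dorsal array. The means were 37.1 ± 3.11 and 120 ± 12.4 (SD, n = 2 each), a ratio of 3.25, with a log2 difference of 1.55 ± 0.20.

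**Figure D1:**
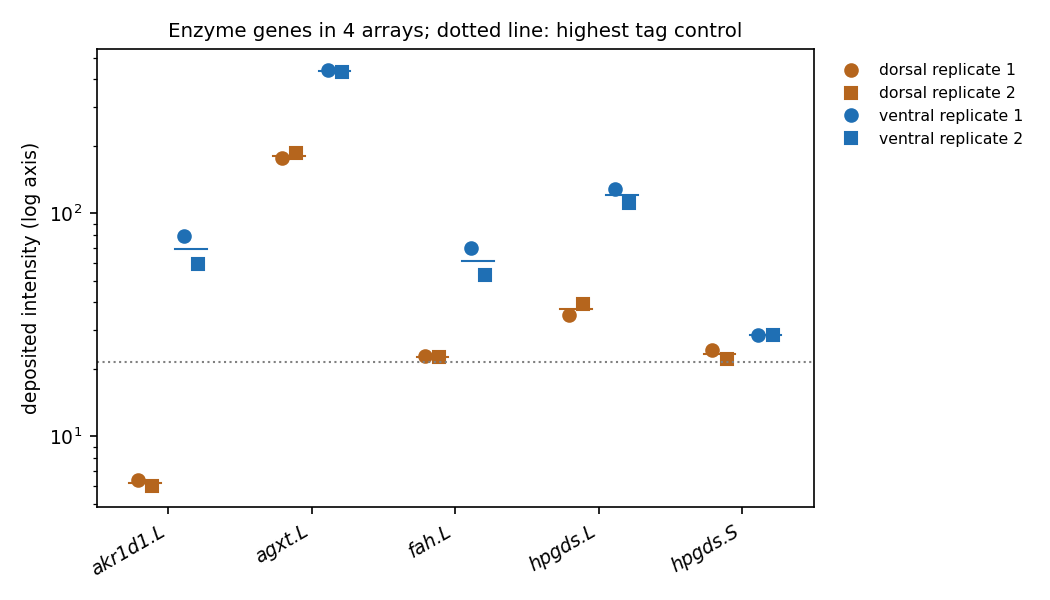
Deposited intensity (log axis) of akr1d1.L, agxt.L, fah.L, hpgds.L and the homeologue hpgds.S on each array, with circles for replicate 1, squares for replicate 2 and short bars for group means. The ventral points of the 4 chosen genes lie above their dorsal points, only the dorsal points of akr1d1.L lie below the dotted line at 21.5, and the hpgds.S points lie close together.

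Taken over the 4 pairs of arrays, the ventral to dorsal ratio ran from 2.84 to 3.70 for hpgds.L, from 2.32 to 3.07 for fah.L and from 2.32 to 2.48 for agxt.L. In the order of the log2 differences akr1d1.L came first of the 4, with a size that rests on dorsal values near background, and hpgds.L followed. The differences of agxt.L and fah.L lay apart by less than their standard errors. Leaving out 1 array at a time, the log2 difference stayed between 2.43 and 2.81 for akr1d1.L, 1.45 and 1.65 for hpgds.L, 1.20 and 1.27 for agxt.L, and 1.04 and 1.40 for fah.L. Both ventral arrays were above both dorsal arrays for all 4 genes, against 18.1% of all probe sets tested, but this contrast chose the genes and nothing is read from that count.

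The gaps between replicates of the 4 genes are given as a description. On the log2 scale dorsal replicates 1 and 2 differed by 0.05 for akr1d1.L, by 0.01 for fah.L, by -0.07 for agxt.L and by -0.15 for hpgds.L. The median size of that gap was 0.28 over all probe sets tested. On the ventral side the gaps were 0.38 for akr1d1.L, 0.36 for fah.L, 0.20 for hpgds.L and 0.03 for agxt.L, against a median size of 0.17. Choosing genes by their dorsal-ventral difference in these same arrays can favour genes with close replicates. Nothing is therefore read from gaps below these medians. For akr1d1.L the added constant also shrinks the dorsal gap, as the dorsal level is about as large as that constant. Ventral replicate 1 was the higher ventral array for 4 of the 4 genes, and for 50.4% of all probe sets tested.

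The homeologue hpgds.S had a small difference that did not pass the test. Its intensity was 24.4 and 22.3 in dorsal pools against 28.5 and 28.5 in ventral pools, all slightly above the highest tag control of any array. The log2 difference was 0.24 ± 0.21, with a limma adjusted p of 0.798. The difference between the copies was itself not tested. Probes of one copy may bind transcripts of the other, and the files do not say how far.

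The rest of each pathway was read from 7 gene lists that leave out the 4 enzymes. Of their 68 genes on the array, 60 passed the filter on dim probe sets, and a gene dim in 1 bud could pass through the other. Over all probe sets, limma with Benjamini-Hochberg adjustment called 0 of the 60 at an adjusted p under 0.05, where it called 0.183% of all probe sets as higher in ventral and 0.0753% as higher in dorsal buds. An unadjusted p under 0.05 was reached by 12 genes with higher ventral values and 8 with higher dorsal values, and by 5.21% and 3.41% of all probe sets. Groups did not overlap for 21 genes with higher ventral values (35% of the 60) and for 16 with higher dorsal values (26.7%), against 18.1% and 21.9% of all probe sets. The median log2 difference was -0.02 over the 60 genes and -0.03 over all probe sets tested. With 1 array left out, where the single array remaining in its group borrows its spread from the other pair, 9.71% of all probe sets passed without dorsal replicate 1, 3.74% without dorsal replicate 2, and 0.043% without either ventral array. Counts of list genes that pass with an array left out are to be read against these shares. A difference of at least 1 log2 unit with both ventral arrays on top was seen for 7 of the 60, and for 1.74% of all probe sets.

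**Figure D2:**
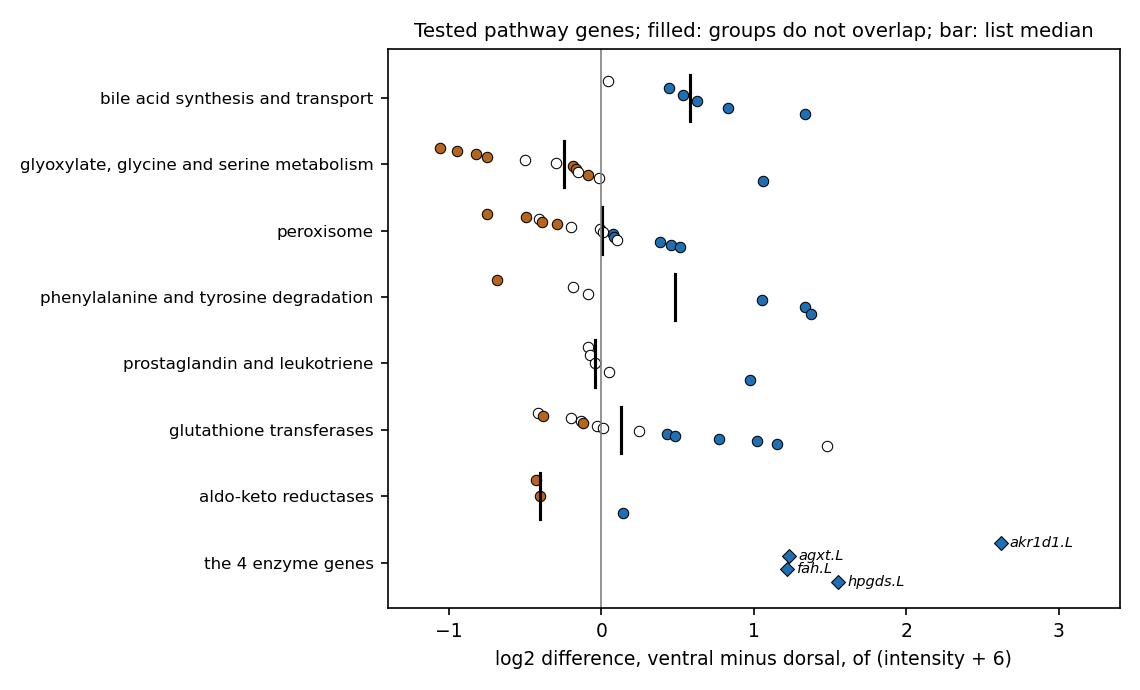
Log2 difference (ventral minus dorsal, of intensity + 6) of each tested gene of the 7 pathway lists, with the list median as a bar, and of the 4 enzyme genes as diamonds. Points are blue where both ventral arrays were higher, brown where both dorsal arrays were higher and white where groups overlapped. The 6 bile acid genes lie to the right of 0, and most glyoxylate, glycine and serine genes lie to its left.

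Among bile acid genes, 7 had a probe set and 6 were tested. All 6 had a positive difference, with a median of 0.58. Groups were apart with ventral on top for 5, and for 18.1% of all probe sets tested. The other gene, abcd3.S, had overlapping groups and a difference of 0.04 (adjusted p = 0.969). The aldo-keto reductase gene akr1c2.L, whose mammalian relatives reduce steroids and bind bile acids, was at 44.4 and 21.7 in dorsal pools against 82.7 and 94.7 in ventral pools. That gave a log2 difference of 1.34 and an adjusted p of 0.195. The genes scp2.L and acox2.L encode peroxisomal enzymes that shorten the bile acid side chain. For scp2.L, intensities of 100.3 and 67.5 against 163 and 139.9 gave 0.83 (adjusted p = 0.317), but its other tested probe set was at -0.11 (adjusted p = 0.927). For acox2.L the difference was 0.63 (adjusted p = 0.494). The difference was 0.44 for hsd3b7.L, an early enzyme of the pathway, and 0.53 for slc27a2.L, which activates long fatty acids and bile acid precursors, and neither passed (adjusted p = 0.673 and 0.639). Without dorsal replicate 1, 2 of the 6 passed, and without dorsal replicate 2, 1 did. For akr1c2.L these fits gave 1.77 and 0.91. With either ventral array left out, 0 of the 6 passed.

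The remaining aldo-keto reductase genes on the array had small differences. The genes akr1b1.S and akr1a1.L, which reduce sugars and aldehydes, had differences of -0.43 (adjusted p = 0.525) and -0.40 (adjusted p = 0.643), each with both dorsal arrays on top. For akr1b1.S the intensities were 431 and 481 in dorsal pools against 364 and 311 in ventral pools. The third, akr7a2.L, was at 0.14 (adjusted p = 0.886).

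The glyoxylate list around agxt.L leaned the other way. Of 15 genes on the array, 12 were tested, and 1 had a positive difference. Groups were apart for 7 genes with dorsal on top, and for 21.9% of all probe sets tested. The median was -0.24. The 1 positive gene was hao1.L, which encodes the peroxisomal glycolate oxidase that supplies glyoxylate in mammalian liver. It was at 8.50 and 28.3 in dorsal pools against 44.8 and 36.6 in ventral pools, a difference of 1.06 (adjusted p = 0.513). The value rested on dorsal replicate 1: it was 1.68 without dorsal replicate 2 and 0.44 without dorsal replicate 1. The related oxidase hao2, which acts on longer hydroxy acids, stood on the dorsal side in both its copies. Intensity of hao2.L was 1468 and 1457 in dorsal pools against 802 and 940 in ventral pools (-0.75, adjusted p = 0.107), and that of hao2.S was 117 and 128 against 52.2 and 59.6 (-1.06, adjusted p = 0.107).

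Glyoxylate also comes from hydroxyproline, through mitochondrial enzymes. The dehydrogenase gene of that route, aldh4a1.L, was at 465 and 358 in dorsal pools against 242 and 181 in ventral pools (-0.94, adjusted p = 0.194), while the groups overlapped for hoga1.L, which encodes its last enzyme (-0.015, adjusted p = 0.99). The gene for the first enzyme of creatine synthesis, gatm.L, which uses glycine, was at -0.82 (adjusted p = 0.183). Small differences with dorsal on top were those of shmt1.L (-0.19), which interconverts serine and glycine, and of gldc.S (-0.17) and amt.L (-0.09), parts of the glycine cleavage system. Their adjusted p-values were 0.818, 0.856 and 0.937. Without dorsal replicate 1, the difference was -0.74 for hao2.L, -1.12 for hao2.S, -0.76 for aldh4a1.L and -0.96 for gatm.L. Without dorsal replicate 2 it was -0.75, -0.99, -1.13 and -0.69 in that order. For hao1.L it was positive in both fits, at 0.44 and 1.68.

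**Figure D3:**
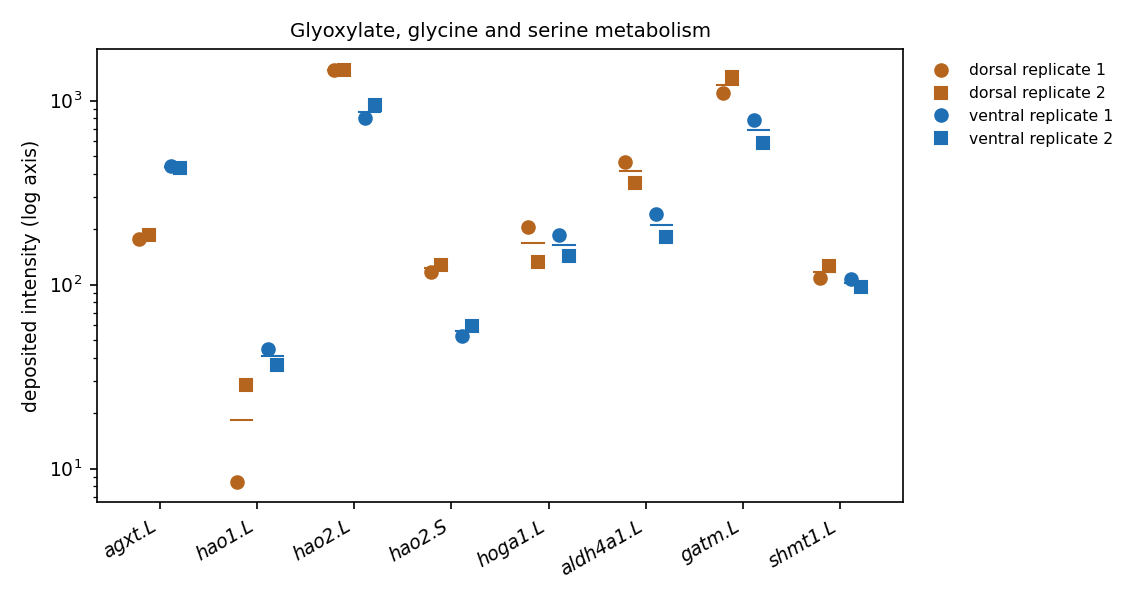
Deposited intensity (log axis) of agxt.L and of genes of glyoxylate, glycine and serine metabolism on each array, with circles for replicate 1, squares for replicate 2 and short bars for group means. The ventral points are on top for agxt.L and hao1.L, the dorsal points for hao2.L, hao2.S, aldh4a1.L, gatm.L and shmt1.L, and the groups overlap for hoga1.L.

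In human liver the agxt product works inside peroxisomes, and peroxisome genes as a list were centred on 0. Of 14 tested, 5 had groups apart with ventral on top and 4 with dorsal on top, against 18.1% and 21.9% of all probe sets. The median was 0.00. On the ventral side were ech1.L, an enzyme of fatty acid breakdown (0.51, adjusted p = 0.564), the epoxide hydrolase ephx2.L (0.46, adjusted p = 0.654) and pex19.S, which brings membrane proteins to the organelle (0.38, adjusted p = 0.672). The other tested probe set of pex19.S had overlapping groups, at -0.035 (adjusted p = 0.972). So did the other copy of the gene, pex19.L, at -0.41 (adjusted p = 0.732). The dorsal side held the antioxidant enzyme prdx5.L (-0.75, adjusted p = 0.398), the thiolase acaa1.L (-0.50, adjusted p = 0.64) and the ether lipid enzyme far1.L (-0.39, adjusted p = 0.557). Without dorsal replicate 1, prdx5.L passed at -0.98 (adjusted p = 0.00581).

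Around fah.L, 3 genes that make or recycle the pterin cofactor had higher values in both ventral arrays. Of the 6 tested genes of the list, 0 passed the threshold. An unadjusted p under 0.05 was reached by these 3 and by 1 gene with higher dorsal values, pcbd2.L. Such a p was reached by 5.21% of all probe sets in the ventral and 3.41% in the dorsal direction. Tyrosine is made from phenylalanine by a hydroxylase that consumes tetrahydrobiopterin. The gene qdpr.L encodes the reductase that regenerates this cofactor, and it was at 77.8 and 71.5 in dorsal pools against 189 and 219 in ventral pools. Its difference of 1.38 ± 0.18 had an adjusted p of 0.0522, the lowest of the 60 pathway genes. It passed with 4 times the constant (adjusted p = 0.0465), with quantile normalization (0.0338), and without dorsal replicate 1 (0.000134) or 2 (0.000555). It did not pass with a constant of 1 (0.063), without any filter (0.0667), under the stricter filter (0.0696), with scaling to a common median (0.0619), with no intensity trend (0.0843), or without ventral replicate 1 (0.532) or 2 (0.915). Blocking on replicate number gave an adjusted p of 0.0283.

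The synthase gene pts.L, which acts in making the cofactor, was at 11.3 and 11.3 in dorsal pools against 44.7 and 31.6 in ventral pools, a difference of 1.34 (adjusted p = 0.107) with dorsal values below the highest tag control. The dehydratase gene pcbd1.L, also of cofactor recycling, stood at 151 and 84.1 against 301 and 192, a difference of 1.05 (adjusted p = 0.392), and its other tested probe sets were at 1.10 (adjusted p = 0.454) and 1.52 (adjusted p = 0.235). Its paralogue pcbd2.L was on the dorsal side at -0.69 (adjusted p = 0.495). Without dorsal replicate 1, pts.L, pcbd1.L, qdpr.L and pcbd2.L passed, and without dorsal replicate 2, pts.L and qdpr.L did.

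Further steps of tyrosine breakdown were sparsely covered. The gene hpd.L, which encodes the enzyme that makes homogentisate, was below the filter and not tested, with at most 6.02 on a dorsal and 10.7 on a ventral array. Aspartate aminotransferases, which can also take the amino group from tyrosine, had overlapping groups, with got1.S at -0.19 (adjusted p = 0.846) and got2.L at -0.09 (adjusted p = 0.925). Of the 6 genes of the list tested, 3 had groups apart with ventral on top and 1 with dorsal on top. The shares of all probe sets were 18.1% and 21.9%. Each of the 3 was apart by at least 1 log2 unit. The list median was 0.48.

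**Figure D4:**
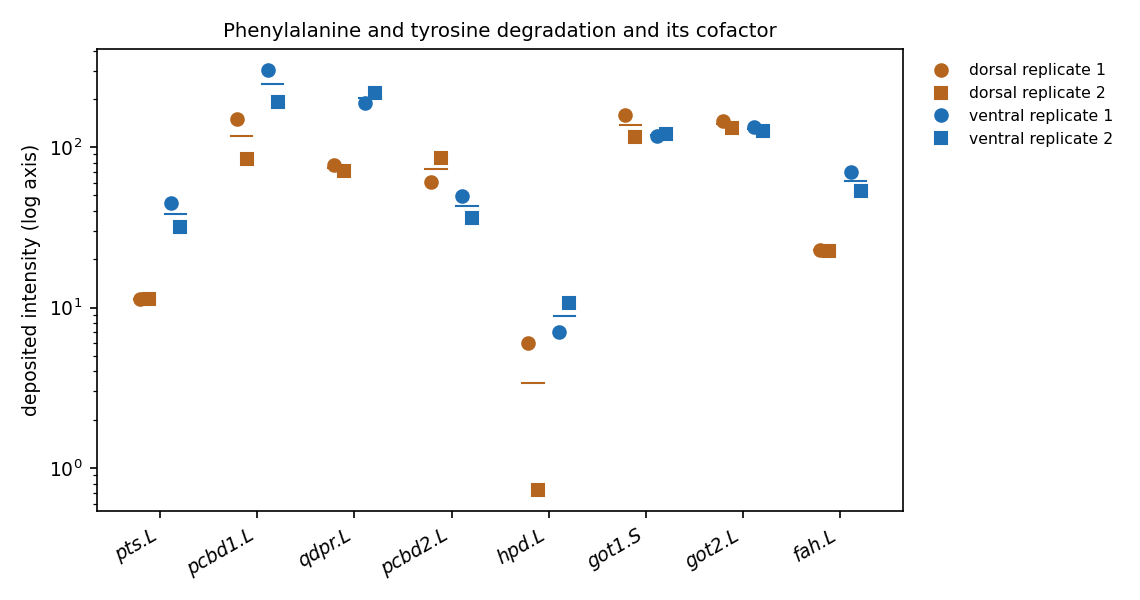
Deposited intensity (log axis) of genes of phenylalanine and tyrosine degradation and its pterin cofactor on each array, beside fah.L, with circles for replicate 1, squares for replicate 2 and short bars for group means. Ventral points are on top for pts.L, pcbd1.L, qdpr.L, the dim hpd.L and fah.L, and dorsal points for pcbd2.L.

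Prostaglandin genes beside hpgds.L were few, with 7 on the array and 5 tested. Of the 5, 1 had groups apart, with ventral on top, as did 18.1% of all probe sets tested. That gene was ptgs1.S, which encodes the cyclooxygenase that makes the precursor for all prostaglandins. It was at 21.1 and 24.5 in dorsal pools against 45.6 and 55.4 in ventral pools, a difference of 0.97 (adjusted p = 0.188). It passed without dorsal replicate 1 at 0.89 (adjusted p = 0.0241) and without dorsal replicate 2 at 1.06 (adjusted p = 0.0169). The inducible cyclooxygenase gene ptgs2.S was not tested either, being dim, with at most 5.62 on any array. The enzymes for other products had overlapping groups: tbxas1.L, the thromboxane synthase, was at -0.04 (adjusted p = 0.978), ptges3.L, a prostaglandin E synthase and cochaperone, at -0.08 (adjusted p = 0.927), and lta4h.L, of leukotriene synthesis, at 0.05 (adjusted p = 0.978). The list median was -0.04.

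By protein family hpgds.L belongs with the glutathione transferases, of which 14 genes, synthesis and recycling of glutathione included, were all tested. Groups were apart for 5 with ventral on top and for 2 with dorsal on top, against 18.1% and 21.9% of all probe sets. The median was 0.13. The mu class gene gstm1.S was at 75.4 and 115 in dorsal pools against 206 and 185 in ventral pools (1.02, adjusted p = 0.195). The omega class gene gsto1.S was at 11.9 and 20.9 against 26.7 and 66.5 (1.15, adjusted p = 0.478). Smaller differences were those of the pi class gene gstp1.L (0.77, adjusted p = 0.512), the membrane-bound mgst1.L (0.43, adjusted p = 0.598) and the alpha class gene gsta1.S (0.48, adjusted p = 0.66). The fitted value of 1.48 for gsta1.L came from 1 array, with 17.4 and 11.9 in dorsal pools against 16.2 and 139.9 in ventral pools, and was 0.12 without ventral replicate 2. Of the 14 genes, 8 had a positive difference. Dorsal arrays were on top for mgst3.S (-0.39, adjusted p = 0.704) and gclm.L (-0.12, adjusted p = 0.894), while groups overlapped for gstt1.L (-0.42, adjusted p = 0.802). With 1 array left out, the difference ran from 0.74 to 1.31 for gstm1.S and from 0.58 to 1.73 for gsto1.S.

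Profiles most like those of the 4 enzymes were sought among tested genes by the root mean square difference of log2 values, each centred on its own mean over the 4 arrays. Nearest to akr1d1.L were 2 clotting factor genes, f9.S (0.28) and f12.L (0.30), then MGC115605 (0.33) and XB5953580.L (0.39). Like akr1d1.L, f9.S was near the floor in dorsal buds, at 8.12 and 7.19, and lay above it in the ventral arrays, at 54.6 and 65.4. The genes nearest to agxt.L were ppl.L (0.06) and evpl.L (0.09), which encode periplakin and envoplakin of epithelial junctions, the leukocyte tetraspanin gene cd37.S (0.10) and the villin-like gene vill.L (0.11). In dorsal buds ppl.L (10.0 and 12.2), evpl.L (11.8 and 10.8) and cd37.S (8.50 and 10.5) lay below the highest tag control, at 21.5, unlike agxt.L. The added constant shrinks the differences of such dim genes, so these likenesses depend on it.

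For fah.L the nearest were the protease inhibitor gene serpinb1.L (0.05), LOC496175 (0.06), the cofactor gene pts.L (0.07) and pacsin3.S (0.09), which acts in membrane trafficking. For hpgds.L they were the fatty acid hydroxylase gene fa2h.L (0.10), pacsin3.S (0.13), the protease inhibitor gene serpinb6.L (0.13) and pts.L (0.15), so pacsin3.S and pts.L were near both. Dorsal values of LOC496175, pts.L, pacsin3.S and fa2h.L also lay below the highest tag control. Among the enzymes themselves, agxt.L and fah.L were the closest pair, 0.12 apart, and akr1d1.L was between 0.54 and 0.70 from the others. With 4 times the constant, 0 of the 4 neighbours of agxt.L and of hpgds.L were kept, against 3 of 4 for fah.L and 2 of 4 for akr1d1.L. Such a likeness over 4 arrays is a description of these arrays alone.

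Markers of other tissues also differed between the same arrays. Of 31 hepatocyte plasma protein genes on the array, 29 were tested and had a median log2 difference of 0.75. Groups were apart for 17 with ventral on top, 12 of them by at least 1 log2 unit, and for 0 with dorsal on top. The shares of all probe sets were 18.1%, 1.74% and 21.9%. The difference was positive for 24 of the 29. Among the others, apob.S was at -0.58 (adjusted p = 0.753) and c3.L at -0.52 (adjusted p = 0.654), both with overlapping groups. Of the 29, 4 passed, all higher in ventral buds, where limma called 0.183% of all probe sets as higher in ventral buds. The largest difference was that of itih2.S, at 47.6 and 64.8 in dorsal pools against 1033 and 886 in ventral pools (3.97, adjusted p = 0.000742). The others were f12.L (2.30, adjusted p = 0.0471), f9.S (2.27, adjusted p = 0.0133) and proc.S (1.85, adjusted p = 0.0333). Larger differences than that of f12.L that did not pass were those of rbp4.L (2.63, adjusted p = 0.117), tf.L (2.55, adjusted p = 0.197) and serpina1.L (2.32, adjusted p = 0.112). All dorsal values of f12.L (1.76 and 6.50), f9.S (8.12 and 7.19) and proc.S (10.9 and 13.8) lay below the highest tag control, at 21.5. The size of their differences therefore depends on the added constant, and they could pass the filter through their ventral values. Of these, f9.S and f12.L were also the genes nearest to akr1d1.L in profile. With either dorsal array left out 18 passed, and with either ventral array left out 1 did. Their summed intensity over the 31 genes was 4978 and 9184 in the dorsal and 10583 and 10259 in the ventral arrays. The summed level, in which the brightest genes of the list weigh most, thus differed strongly between the dorsal arrays. Single genes of the list varied in this, with rbp4.L at 52.8 and 198, fetub.S at 618 and 1239 and ambp.L at 1408 and 1494 on the dorsal arrays. The dorsal values of f9.S were near the floor and tell nothing of this spread. Whether more liver tissue in the ventral pools had a part in the enzyme values was not tested.

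Summed blood and muscle markers were higher in ventral arrays as well. Granulocyte, macrophage, mast cell and thrombocyte markers, relevant to hpgds.L, had 6 of 15 genes tested with a median of 1.22 and summed to 554 and 561 in dorsal pools against 771 and 1060 in ventral pools. Within that list the tested genes with the largest differences were 3 granulocyte genes, each higher in both ventral arrays. The peroxidase gene epx.L was at 29.6 and 37.7 in dorsal pools against 115 and 222 in ventral pools (adjusted p = 0.0808), mpo.L at 38.6 and 59.3 against 136 and 217 (adjusted p = 0.0957), and the proteinase gene prtn3.S at 24.5 and 29.4 against 72.7 and 126 (adjusted p = 0.102). Of the 6 tested genes, 5 had a positive difference. The exception, nfe2.S, was the brightest gene of the list. It was at 351 and 318 in dorsal pools against 285 and 267 in ventral pools (-0.27, adjusted p = 0.694). The difference was 0.48 for kit.S (adjusted p = 0.608), and kit.L and gata2.L were too dim to be tested. For red cell markers 8 of 11 genes were tested (median 0.79), with sums of 9139 and 5762 against 10686 and 14803. Skeletal muscle markers had 11 of 18 tested (median 1.59), with sums of 488 and 367 against 871 and 1157. In these lists 0 genes passed in limma. An unadjusted p under 0.05 was reached by 4, 6 and 8 genes, all with higher ventral values, and by 5.21% of all probe sets in that direction. Without dorsal replicate 1 the genes past the threshold numbered 4, 6 and 9, and without dorsal replicate 2 they numbered 3, 1 and 8. All 3 sums were higher in ventral replicate 2 than in ventral replicate 1. Whether blood or muscle cells had a part in the enzyme values was not tested.

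Kidney, where agxt and fah are also active in mammals, was sparsely covered, with 4 genes on the array from a list of 18 symbols and 0 tested. So few markers cannot show how much kidney tissue the pools held, and its part in the enzyme values was not tested. Its 4 marker genes on the array were below the highest tag control on all arrays, and their sum was at most 35.0. Intestine and stomach markers summed to between 114 and 181 in dorsal and between 152 and 176 in ventral buds. As to the labelled tissue, exocrine pancreas markers summed to 14273 and 5157 in dorsal pools against 11391 and 6014 in ventral pools, and endocrine markers to 3701 and 4415 against 186 and 154.

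**Figure D5:**
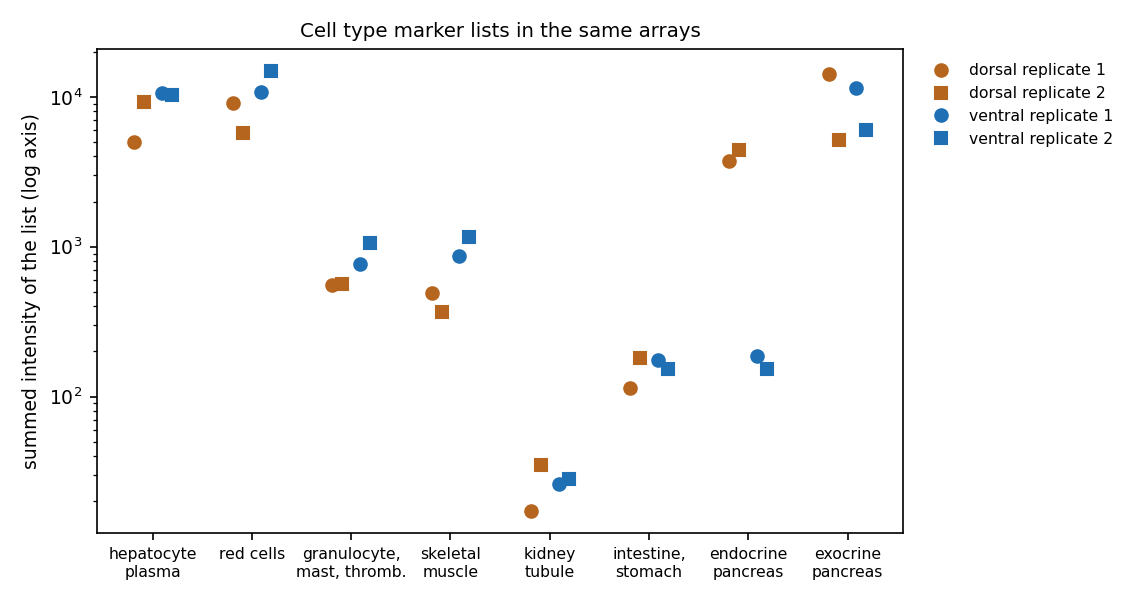
Summed deposited intensity (log axis) of the genes on the array from each of 8 cell type marker lists, on each array, with circles for replicate 1 and squares for replicate 2. Ventral points are on top for hepatocyte, red cell, granulocyte and muscle lists, dorsal points for the endocrine list, and the kidney sums are the lowest of the 8.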

How the data were processed

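RNA of 4 pools of buds was labelled with biotin from oligo(dT)-primed cDNA, per the labels' protocols, which favours 3' ends. The protocol speaks of a typical input in micrograms, while each pool yielded nanograms; whether RNA was amplified before the labelling is not stated, and its effect on intensities and 3' to 5' ratios was not tested. The deposited values are linear probe-set intensities, 1 column per array. Per the submitters' processing notes they were made with MAS5; version, scaling target, background settings and detection calls are not given in the sources used here. Of 15611 probe sets, 120 controls were left out. Of the other 15491, 9304 had 1 gene symbol, 195 several and 5992 none. Symbols were updated by gene identifier through RefSeq's *X. laevis* v10.1 table (9227 matched, 2 changed).

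The deposited scaling was kept, a constant of 6, taken from the 20th percentile of the table, preceded log2, and the 9294 probe sets with a mean log2 above its 40th percentile were tested. Differences, ventral minus dorsal, were fitted with limma 3.58.1 in R 4.3.3 (lmFit, eBayes with intensity trend, no covariate) over all arrays and adjusted by Benjamini-Hochberg over all probe sets tested, with a threshold of 0.05. The fit was tested on simulated data with changes placed in brighter probe sets only, so that test does not cover dim genes such as akr1d1.L. Each list gene was read from its brightest probe set. Named genes were the 4 enzymes, the homeologue and the 4 nearest genes of each enzyme. Genes of the 7 pathway lists could be named, always including those with groups apart by at least 1 log2 unit. Of the 8 marker lists, genes with the largest absolute difference or past the threshold could be named. Further marker genes are given to show smaller or opposite differences, or the spread between dorsal arrays. The enzymes and all lists were chosen with earlier results of these data known. Alternatives changed the added constant, the filter, the normalization, the intensity trend, the replicate block and each array in turn.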

Additional observations from a re-analysis of the deposited data

How the results depend on the processing

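The log2 difference of the 4 enzyme genes stayed positive under all 12 alternatives, save that akr1d1.L was not tested with the filter at the 60th percentile. It moved by more than the replicate SD with 4 times the added constant (akr1d1.L 1.62, agxt.L 1.16, fah.L 0.86, hpgds.L 1.24), for akr1d1.L with a constant of 1 (3.28), and for agxt.L with quantile normalization (1.32) and with scaling to a common median (1.18). Of the probe sets tested, 24 passed; 13 did with the filter at the 60th percentile and 67 with the replicate number as a block, and the count ran from 4 without a ventral array to 902 without dorsal replicate 1. Nothing in the labels pairs the pools by number, and the gaps between replicates 1 and 2 correlated at 0.05 between dorsal and ventral arrays. Under the block, genes past the threshold numbered 1 for phenylalanine and tyrosine degradation, 7 for hepatocyte, 3 for granulocyte and 1 for muscle markers. The tyrosine list also had 1 with 4 times the constant and 1 with quantile normalization, and the hepatocyte list had 2 without any filter and 1 under the stricter filter. Leaving out 1 array, genes past the threshold ran from 0 to 2 for bile acid genes and glutathione transferases, 0 to 5 for glyoxylate, 0 to 1 for peroxisome, prostaglandin and intestine, 0 to 4 for tyrosine, granulocyte and exocrine, 0 to 6 for red cell, 0 to 9 for muscle, 1 to 18 for hepatocyte and 2 to 7 for endocrine genes. A lone array is assumed to vary like the other group. Directions turned for hoga1.L (0.051) and ptges3.L (0.024) with quantile normalization. Without 1 array got1.S ran from -0.41 to 0.034, hoga1.L from -0.32 to 0.29, lta4h.L from -0.51 to 0.61, ptges3.L from -0.18 to 0.028 and tbxas1.L from -0.38 to 0.30. The cause was not tested for any of these. Dim genes, akr1d1.L in dorsal buds included, are limited by signal over background.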
